A study of Homo sapiens with 2 samples.

Results

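The genes described here encode the machinery by which cells sense sterols in the endoplasmic reticulum (ER): SREBF1, SREBF2, SCAP, INSIG1, INSIG2, MBTPS1, MBTPS2, STARD4 and MYLIP. They were chosen by symbol, and all 9 were found once each among the 20323 genes of the deposited table. Sequencing of poly(A)-enriched RNA covered cells of MDA-MB-231, an established human line from a triple-negative breast cancer, given either a negative-control small interfering RNA (siRNA) or an siRNA against HNRNPF, which encodes an RNA-binding protein of splicing and polyadenylation. The comparison asked how depletion of HNRNPF changed transcript levels. Each group held 1 library, so no test of the difference was possible. Statements of direction compare 1 library with the other, and every 95% interval covers counting error only. No label used here states the dose of siRNA or the time after transfection.

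The control library held 20654622 estimated counts and the HNRNPF siRNA library 20134572. Mitochondrially encoded genes took 4.8% and 5.62% of the counts. HNRNPF itself went from 6373 to 2451 counts, at a log2 ratio of -1.37 (95% interval -1.44 to -1.30). The column of the HNRNPF siRNA library is named si848 and was assigned by the table's own name. Of 6 genes typical of the line, VIM and CD44 among them, all were expressed. Of 6 genes listed as absent or low in lines of this type, 3 were expressed as well. These were ERBB2 (1160 counts under control siRNA and 1236 under HNRNPF siRNA), GATA3 (99 and 89) and EPCAM (34 and 47). Of the rest, PGR was at 0 in both libraries, CDH1 had 3 and 0 counts, and ESR1 had 3 and 8. Of 22 markers of haematopoietic, endothelial, fibroblast and hepatocyte identity, 6 were expressed. In bulk RNA, fewer cells with a transcript and less of it per cell cannot be told apart.

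Sterol regulatory element-binding proteins (SREBPs) are transcription factors made as precursors in the ER membrane, where SCAP binds them. When ER cholesterol is low, SCAP escorts the precursor to the Golgi, and the site-1 and site-2 proteases release the part that enters the nucleus and switches on genes of cholesterol and fatty acid synthesis. When cholesterol is plentiful, INSIG proteins hold SCAP in the ER. INSIG1, SREBF2 and STARD4 are themselves SREBP targets, so their transcripts are widely read as gauges of the pathway, and MYLIP is induced instead by the liver X receptors (LXRs) when sterols are in excess.

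By counts, INSIG1 and STARD4 stood furthest below control, and SREBF2 and SREBF1 were lower by small margins. SCAP was higher, and both proteases were close to their control level. A gene counted as expressed at 1 CPM (counts per 1000000, scaled by library) and 20 counts in the higher library, a level that all 9 genes and 12218 genes in all reached. Of the 9, 7 had a log2 ratio below 0, against 49.9% of all expressed genes. INSIG1 alone was at least 1.5-fold lower, which 2.68% of expressed genes were, and none of the 9 was at least 1.5-fold higher, which 3.40% were. The counting interval lay wholly below 0 for 4 of the 9 (INSIG1, STARD4, SREBF2 and, within rounding of 0, SREBF1), against 24.5% of expressed genes. It lay wholly above 0 for SCAP alone, against 21.5%. The median log2 ratio of the 9 was -0.14, and that of all expressed genes was 0.00.

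**Figure D1:**
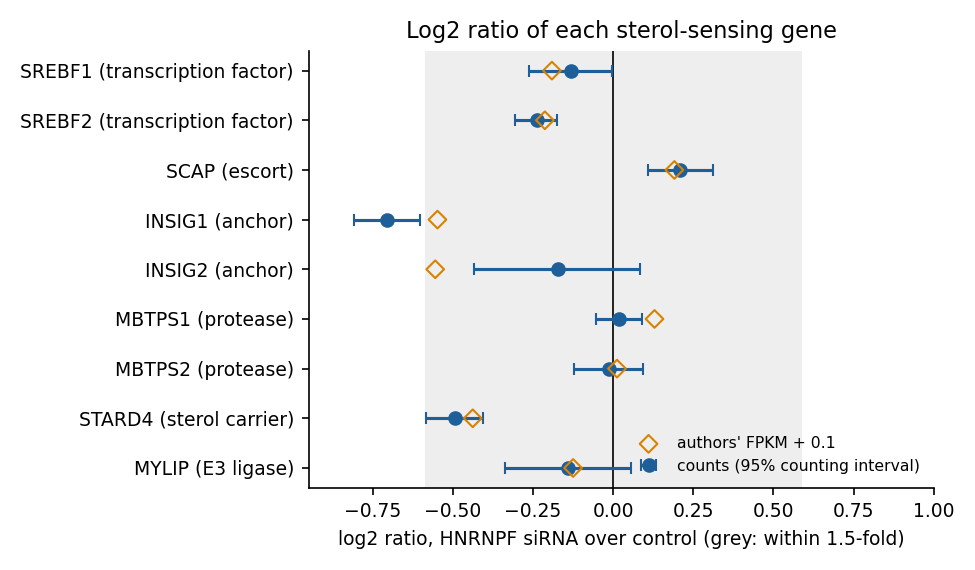
Log2 ratio (horizontal axis) of each of the 9 genes from counts, as filled circles with 95% counting intervals, and from the authors' FPKM with 0.1 added, as open diamonds; the grey band marks ratios within 1.5-fold. By counts INSIG1 (-0.70) lies outside the band, STARD4 (-0.49) inside it and SCAP (0.21) furthest to the right, and for INSIG2 the diamond (-0.56) lies outside the counting interval.

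Levels of the 9 genes can be compared with one another only per length, as the authors' FPKM (fragments per kilobase of transcript, scaled by library). In the control library the order was SREBF2 (38.8), INSIG1 (36.9), MBTPS1 (33.7), STARD4 (33.5), SCAP (18.6), MBTPS2 (15.5), SREBF1 (13.8), MYLIP (7.15) and INSIG2 (4.88). In the HNRNPF siRNA library MBTPS1 led with an FPKM of 36.9, followed by SREBF2 at 33.5, INSIG1 at 25.2, STARD4 at 24.7 and SCAP at 21.2. MBTPS1 thus went from the third place to the first, SREBF2 and INSIG1 each moved down by 1, and the 6 others kept their places. Neighbours such as MBTPS1 and STARD4 in the control, or INSIG1 and STARD4 after HNRNPF siRNA, differ by less than an order could be read from with 1 library each.

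**Figure D2:**
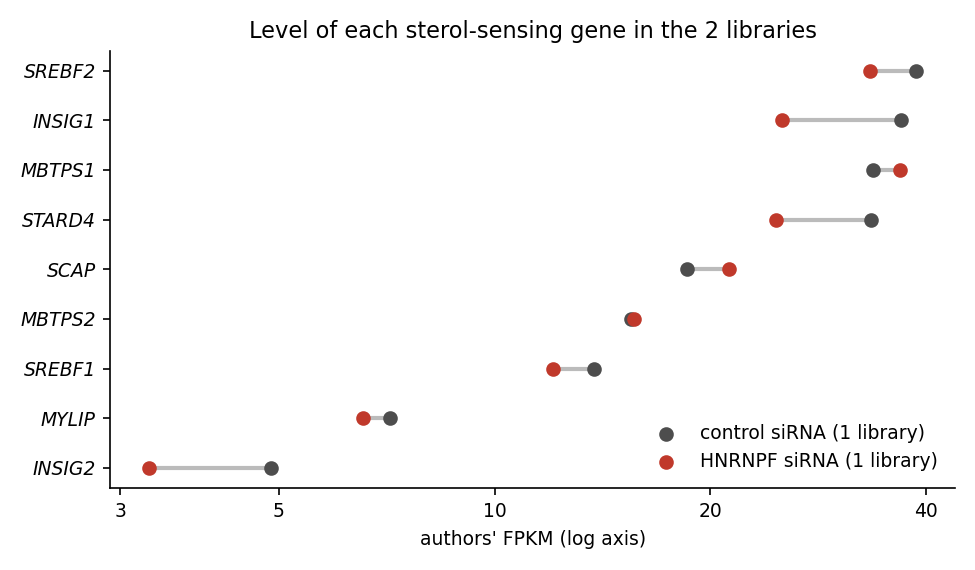
FPKM (horizontal axis, logarithmic) of each gene in the control library (grey) and the HNRNPF siRNA library (red), 1 library each, joined by a line. The lines of INSIG1, STARD4 and INSIG2 are the longest and run to the left, and that of MBTPS2 (15.5 and 15.7) is the shortest.

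SREBF2 encodes SREBP-2, the main driver of cholesterol synthesis genes, and SREBF1 encodes SREBP-1, whose forms drive fatty acid synthesis as well. SREBF2 (GRCh38 chromosome 22, 41833079 to 41907308, plus strand) was counted 4188 times under control siRNA and 3520 times under HNRNPF siRNA, or 205 and 173 CPM. Its level after HNRNPF siRNA was 84.7% of control (95% interval 81.0% to 88.6%), a log2 ratio of -0.24 (95% interval -0.31 to -0.17). SREBF1 (chromosome 17, 17810399 to 17837002, minus strand) had 1021 and 924 counts, 49.9 and 45.5 CPM. The log2 ratio of SREBF1 was -0.13, and its interval of -0.26 to -0.00 came within rounding of 0. With other scalings its log2 ratio was -0.107 (total counts) and -0.095 (total without mitochondrial genes). Whether its interval excludes 0 therefore depends on the scaling. SREBF2 exceeded SREBF1 by 2.81-fold in FPKM in the control library and by 2.77-fold in the HNRNPF siRNA library, so the balance of the 2 factors was nearly the same. Exons of SREBF1 overlap RAI1 and those of SREBF2 overlap SREBF2-AS1, each on the opposite strand, and since the sources used here do not say whether counting used strand, reads from the overlaps cannot be told apart.

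The promoter of SREBF2 is known for its feedback site for SREBP itself. Promoter windows of RefSeq (GRCh38.p14, 250 bases before to 50 after the gene's start) were found for all 9 genes and searched on both strands for TCACNCCAC, a sterol regulatory element (SRE) type of sequence, for ATTGG, the box of the factor NF-Y that assists SREBPs, and for the E-box CACGTG. An SRE-type match was found in 1 of the 9 windows, that of SREBF2, against 396 of 35116 RefSeq windows (1.13%). The same letters were in 0 of 16 windows of expressed cholesterol synthesis genes. They were in 0 of 5 for LDL uptake genes and 1 of 13 for fatty acid targets of SREBP-1, so most listed SREBP targets lack them. ATTGG was found in 4 of the 9 windows (SREBF2, INSIG1, STARD4 and MYLIP), against 34.6% of all windows, and CACGTG in 2 (INSIG1 and SCAP), against 7.26%. With 1 window per expressed gene, the shares were 1.11% for the SRE type, 37.0% for ATTGG and 10.1% for CACGTG. The windows of SREBF2, INSIG1 and STARD4, named above as SREBP targets, are shown 5′ to 3′ on the gene's strand with the matches in capitals. None of these matches overlap.
SREBF2, SRE type, bases -133 to -125 from the start, chr22:41832962-41832990: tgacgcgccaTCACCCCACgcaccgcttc
SREBF2, ATTGG, bases -106 to -102, chr22:41832989-41833013: tcgctcgcccATTGGctgagatgag
INSIG1, ATTGG, bases -170 to -166, chr7:155297698-155297722: ccggcctcccATTGGttgcggccgc
INSIG1, E-box, bases -55 to -50, chr7:155297813-155297838: cgggcaggctCACGTGatgcgggccc
STARD4, reverse strand match of ATTGG, bases -161 to -157, chr5:111512682-111512706: ttatcggccaCCAATcagccctcca
STARD4, reverse strand match of ATTGG, bases -130 to -126, chr5:111512651-111512675: cccgcgccagCCAATccgaacaagc

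A match describes letters in the window and is no evidence of binding, and a window without a match says only that these letters are not in it. The SRE-type match and the ATTGG box of SREBF2 lie close together upstream of its start. STARD4 holds a pair of ATTGG boxes, as does MYLIP at bases -109 to -105 and -68 to -64.

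SCAP, the escort, was the only gene of the 9 whose interval lay above 0. SCAP (chromosome 3, 47413694 to 47477126, minus strand) was counted 1505 times under control siRNA and 1727 times under HNRNPF siRNA, or 73.5 and 85.0 CPM. Its log2 ratio was 0.21 (95% interval 0.11 to 0.31), 1.16-fold higher. By rank, 81.0% of expressed genes had a smaller log2 ratio, so SCAP lay in the upper part of the distribution but not at its edge.

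The anchors of SCAP differed from each other by counts. INSIG1, itself an SREBP target, lies on chromosome 7 (155297776 to 155310235, plus strand) and was counted 2022 times under control siRNA and 1231 times under HNRNPF siRNA, or 98.8 and 60.6 CPM. Its level after HNRNPF siRNA was 61.4% of control (95% interval 57.1% to 65.9%), a log2 ratio of -0.70 (95% interval -0.81 to -0.60), or 1.63-fold lower. Only 1.71% of expressed genes had a smaller log2 ratio. INSIG2, which is less dependent on SREBPs than INSIG1, lies on chromosome 2 (118088452 to 118110997, plus strand) and had 266 and 234 counts, 13.0 and 11.5 CPM. The log2 ratio of INSIG2 was -0.17 with an interval of -0.43 to 0.09, so no difference was detectable at this depth, and its interval does not overlap that of INSIG1.

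The authors' FPKM gave another picture of INSIG2. Its FPKM was 4.88 under control siRNA and 3.29 under HNRNPF siRNA, and the authors' deposited table gives a log2 fold change of -0.57, against -0.17 from its counts. A gene's count divided by its FPKM and the library total gives the mean transcript length that the authors' pipeline assigned to it, and for 1383 genes with 1 coding transcript this implied length was a median of 0.995 times the annotated one. For INSIG2 the implied length was 2639 bases under control siRNA and 3532 under HNRNPF siRNA, a ratio of 1.34. Among 11135 expressed genes with an FPKM of 1 or more in both libraries, 99.2% had a smaller ratio, and 90% lay between 0.888 and 1.11. The principal coding transcript of INSIG2 in GENCODE 29, INSIG2-201, has 2590 bases and the longest transcript of any type 3185, so the second implied length exceeds every annotated one. Such an excess is not particular to INSIG2, since both implied lengths of MYLIP (3047 and 3071) exceed its longest annotated transcript of 2796 bases. The sources used here do not name the authors' annotation, and the cause of the shift in INSIG2 was not tested.

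**Figure D3:**
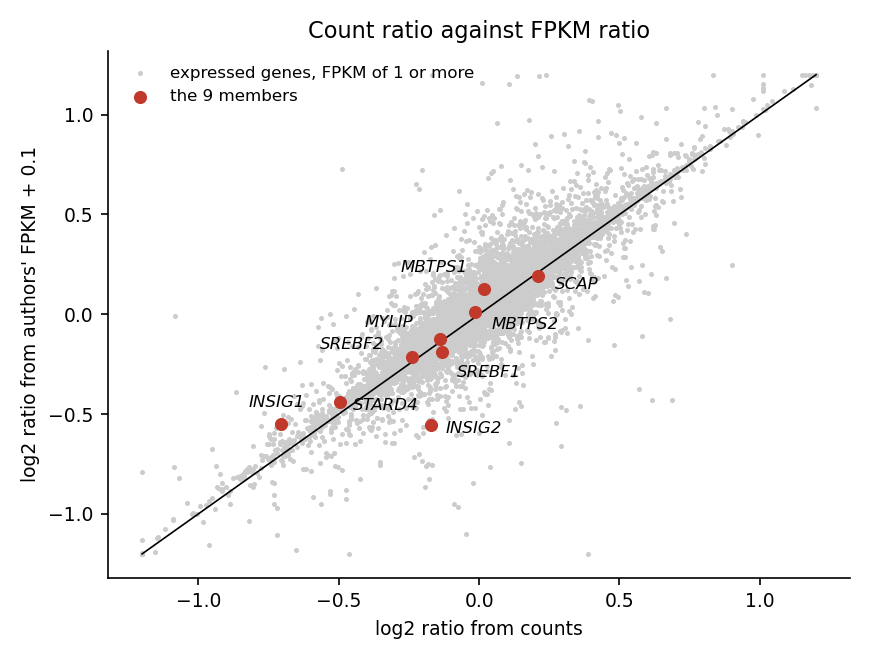
Log2 ratio from the authors' FPKM with 0.1 added (vertical axis) against the log2 ratio from counts (horizontal axis) for expressed genes with an FPKM of 1 or more (grey) and the 9 genes (red); the line marks equal values, and 29 genes beyond 1.2 in either direction are drawn at the edge. INSIG2 (-0.17 by counts, -0.56 by FPKM) lies well below the line and INSIG1 (-0.70 and -0.55) above it.

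For INSIG1 the shift was in the other direction, from an implied length of 2654 to 2427 bases, a ratio of 0.914 that 7.36% of genes were below. The authors' deposited table gives INSIG1 a log2 fold change of -0.55, just short of 1.5-fold. The 7 other genes had ratios of implied length between 0.942 (MBTPS1) and 1.06 (SREBF1). They and INSIG1 lay inside the central 90% of genes, and INSIG2 outside it. As a consequence the 2 anchors differ in their log2 ratios by counts (-0.70 and -0.17) but hardly by FPKM (-0.55 and -0.56). In FPKM, INSIG1 exceeded INSIG2 by 7.56-fold under control siRNA and by 7.66-fold under HNRNPF siRNA. The FPKM of SCAP relative to the sum of both anchors was 0.445 under control siRNA and 0.745 under HNRNPF siRNA.

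Transcripts of the proteases were at their control level within counting error. MBTPS1, the site-1 protease that makes the first cut in SREBPs (chromosome 16, 84053761 to 84116906, minus strand), had 3018 and 3032 counts, 147 and 149 CPM. The log2 ratio of MBTPS1 was 0.02 (95% interval -0.05 to 0.09), or 96.2% to 107% of control. MBTPS2, the site-2 protease that makes the second cut within the membrane (chromosome X, 21839636 to 21885424, plus strand), had 1425 and 1401 counts, 69.6 and 69.0 CPM, with its log2 ratio at -0.01 (95% interval -0.12 to 0.09). The sign of MBTPS2 flips with the scaling of the libraries, from -0.02 to 0.03 over 3 other scalings, and its log2 ratio was 0.07 after correction for GC content and transcript length. By FPKM MBTPS1 was at 33.7 and 36.9, a log2 fold change of 0.13 in the authors' deposited table. Exons of YY2 overlap those of MBTPS2 on the same strand.

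STARD4, a soluble carrier that moves sterols between membranes, was the second lowest of the 9 by counts. STARD4 (chromosome 5, 111496033 to 111512590, minus strand) was counted 2464 times under control siRNA and 1736 times under HNRNPF siRNA, or 120 and 85.5 CPM. At 71.0% of control (95% interval 66.7% to 75.5%), its log2 ratio was -0.49 (95% interval -0.58 to -0.41), 1.41-fold lower, and 3.96% of expressed genes had a smaller one. Its interval lay above that of INSIG1 and below that of SREBF2, so by counts and counting error alone these 3 SREBP targets were lower by different amounts. By FPKM STARD4 was at -0.44 and INSIG1 at -0.55, a value inside the counting interval of STARD4, so their separation rests on the counts. STARD4 overlaps STARD4-AS1 on the opposite strand.

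MYLIP, also called IDOL, encodes the E3 ubiquitin ligase that marks lipoprotein receptors, VLDLR and LRP8 among them, for degradation. MYLIP (chromosome 6, 16129125 to 16148248, plus strand) had 450 and 405 counts, 22 and 19.9 CPM. With a log2 ratio of -0.14 and an interval of -0.34 to 0.06, no difference was detectable at this depth. Intervals of MYLIP, INSIG2 and SREBF1 overlap each other widely.

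**Figure D4:**
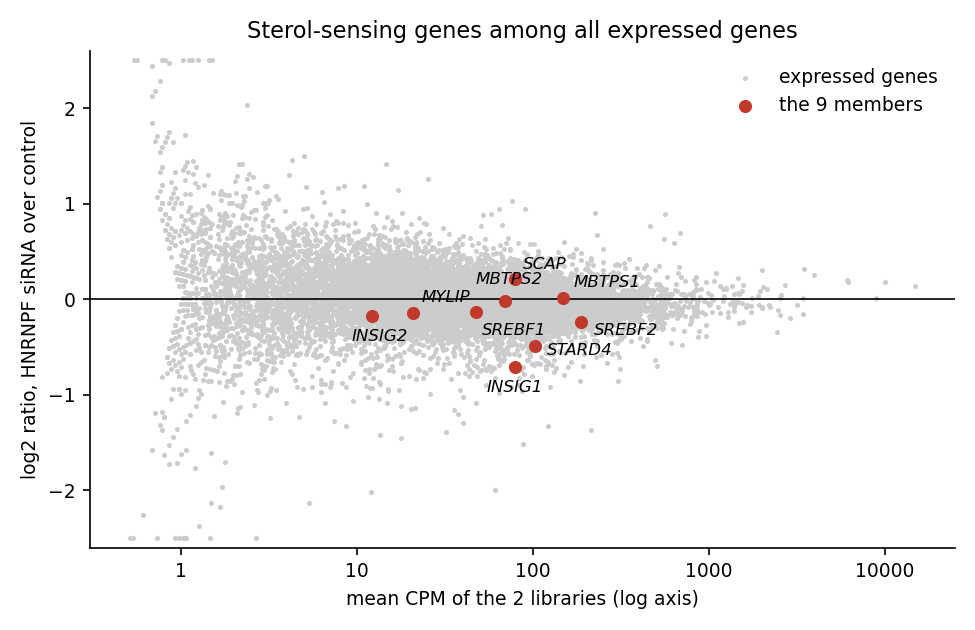
Log2 ratio (vertical axis) against the mean CPM of the 2 libraries (horizontal axis, logarithmic) for all 12218 expressed genes (grey) and the 9 genes (red); 20 genes beyond 2.5 in either direction are drawn at the edge. INSIG1 (-0.70) and STARD4 (-0.49) lie at the lower edge of the genes at their level, and the 7 others within the cloud.

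The heptamer GGAAGAA, singled out in an earlier analysis of these libraries because lower genes often hold it in their 3′ untranslated region (UTR), was looked up in the 9 genes as a description. Using each gene's principal transcript in GENCODE 29, 2397 of 11951 expressed genes with a 3′ UTR hold it (20.1%), and so do 156 of the 312 such genes at least 1.5-fold lower with HNRNPF left out. Median 3′ UTR length was 2833 bases with the heptamer and 891 without. By the principal transcript INSIG1 was the only holder among the 9, in 2 of its 4 coding transcripts with a 3′ UTR, with the match starting 40 bases into a 3′ UTR of 1965. Counting the longest 3′ UTR of each gene, SREBF2, SCAP and MYLIP held it as well, each in 1 coding transcript, and by the same rule 2716 of the 11951 genes held it (22.7%). The 4 sites are shown 5′ to 3′ on the transcript, with the heptamer in capitals and its GRCh38 position.
INSIG1, transcript INSIG1-201, chr7:155308310-155308316: aggaagattttGGAAGAAaatctgactgt
MYLIP, transcript MYLIP-201, chr6:16146882-16146888: aaaaaaaaaaaGGAAGAAaaataacacag
SREBF2, transcript SREBF2-209, chr22:41894923-41894929, flanks across an exon junction: gctggagaccaGGAAGAAgagagctgtga
SCAP, transcript SCAP-206, chr3:47413972-47413978: agtctacctggGGAAGAAcagtgaggccc

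The lowest of the 9 genes by counts, INSIG1, thus holds the heptamer in its principal 3′ UTR. STARD4, the second lowest by counts, holds it in none of its 5 coding transcripts despite a 3′ UTR of up to 3853 bases. INSIG2, which by FPKM (-0.56) was as low as INSIG1 (-0.55), holds it in 0 of its 2 coding transcripts with a 3′ UTR. SCAP, which was higher, holds it in a transcript that is not the principal one. In MYLIP the site begins at base 131 of the longer 3′ UTR, just past the end of the principal one at 130 bases. The implied lengths of MYLIP, 3047 and 3071 bases, exceeded both annotated transcripts. They were closer to MYLIP-201 (2796 bases) than to the principal transcript (1666 bases), whereas those of SREBF2 (5227 and 5226) were close to its principal transcript of 5240. The part of the heptamer in the values of these genes was not tested.

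Genes that SREBPs act on were lower more often than higher around the 9. For scale, 49.9% of all expressed genes lay below control, 24.5% had an interval wholly below 0 and 21.5% wholly above. Cholesterol synthesis was represented by 21 expressed genes, of which 20 lay below control, with a median log2 ratio of -0.30 and with 15 intervals wholly below 0 and none above. At least 1.5-fold lower were HMGCS1 (-0.71), which makes HMG-CoA, IDI1 (-0.66), an isomerase of isoprenoid units, and HSD17B7 (-0.60), a late step of cholesterol synthesis. INSIG1 at -0.70 lay within the range of the list (-0.71 to 0.18), as did STARD4 at -0.49 and SREBF2 at -0.24. The 18 genes of the list without GGAAGAA had a median of -0.29, with 17 below control, and the 3 that hold it, HMGCS1 among them, were all below control with a lower median. Lower values of holders are partly built in, because the heptamer was singled out in these libraries from lower genes.

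Targets of SREBP-1 in fatty acid synthesis were lower in 12 of 15 expressed genes, with a median of -0.16 and 8 intervals below 0 and 1 above. SCD (-0.45) and FADS1 (-0.43), which are desaturases, and GPAM (-0.36), which starts triglyceride synthesis, differed most. The 11 without GGAAGAA had a median of -0.14, and the 4 with it, SCD and FADS1 among them, a median of -0.39. Since the heptamer was chosen in these libraries for its presence in lower genes, that gap is no independent evidence about it. Among genes of LDL uptake and its receptors, 5 of 6 expressed genes lay below control, with a median of -0.12 (-0.08 without VLDLR, which holds GGAAGAA) and with 3 intervals below 0 and none above. VLDLR (-0.29) and LRP8 (-0.27), receptors that MYLIP acts on, and NPC1 (-0.17, but -0.05 by FPKM) had intervals below 0, whereas TMEM97 (-0.08) and NPC2 (0.07) did not.

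**Figure D5:**
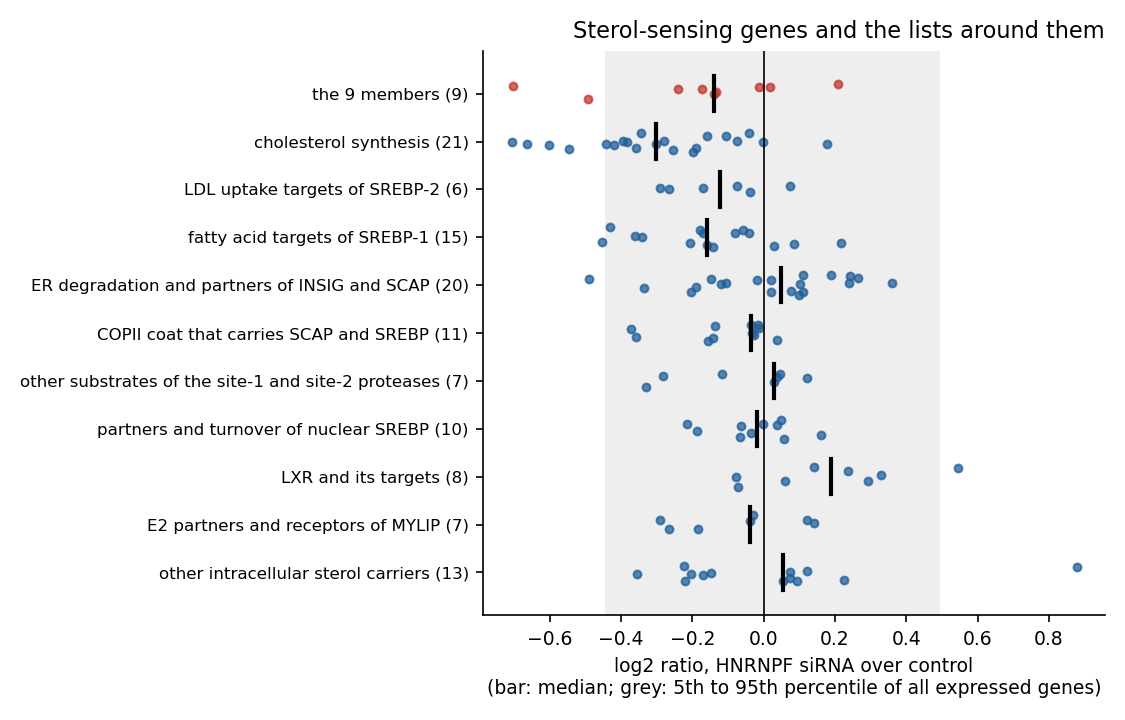
Log2 ratio (horizontal axis) of each expressed gene of the 9 (red) and of 10 lists around them (blue), with the number of expressed genes in brackets, the median as a black bar, and the 5th to 95th percentile of all expressed genes (-0.44 to 0.49) in grey; vertical scatter is for legibility only. The cholesterol synthesis list has the lowest median (-0.30) and the LXR list the highest (0.19).

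Genes that act on INSIG, SCAP or their partners in the ER were mixed, with 8 of 20 below control and a median of 0.05. Intervals lay wholly above 0 for 8 of the 20 and wholly below for 5, against 21.5% and 24.5% of all expressed genes. The lowest was SPRING1 (-0.49, 95% interval -0.58 to -0.40), a Golgi protein that the site-1 protease needs for its maturation, with 2388 and 1686 counts, and was at -0.31 by FPKM. HSPA5, the ER chaperone BiP, was at -0.34, and ERLIN2, a partner of INSIG-dependent degradation, was the highest at 0.36 (0.22 by FPKM). In the COPII coat that carries SCAP and SREBP to the Golgi, 10 of 11 genes lay below 0 with a median of -0.04, a count that was 5 under 2 of the alternatives. Intervals of the coat genes lay wholly below 0 for 5 of the 11 and above it for none. SEC24D (-0.37) and SEC13 (-0.36) differed most.

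Other substrates of the proteases were below control in 3 of 7 expressed genes (median 0.03), with ATF6B at -0.33 and ATF6 at -0.28, both sensors of the unfolded protein response, and CREB3L1 at 0.12 (0.23 by FPKM). Partners and turnover factors of nuclear SREBPs were below control in 6 of 10 (median -0.02), with the deacetylase SIRT1 at -0.21, the NF-Y subunit NFYC at -0.19 (-0.29 by FPKM) and the Mediator subunit MED15 at 0.16.

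LXRs, which raise MYLIP, SREBF1 and cholesterol exporters, had 6 of 8 expressed list genes above control (median 0.19). An interval wholly above 0 was found for 2 of the 8, against 21.5% of all expressed genes. The list joins receptors with targets, and ABCA1 was its only target with an interval above 0. ABCA1, which exports cholesterol, went from 364 to 528 counts at a log2 ratio of 0.55 (95% interval 0.35 to 0.74), and RXRB, a partner of LXR, was at 0.29, while MYLIP and SREBF1 were at -0.14 and -0.13. SMPDL3A (0.24, 95% interval -0.06 to 0.54) had an interval that included 0. In the list of E2 enzymes and receptors that work with MYLIP, 5 of 7 genes lay below control (median -0.04). UBE2D4, an E2 enzyme, was at -0.18, with an interval that included 0.

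Other intracellular sterol carriers were divided, with 6 of 13 expressed genes below control and a median of 0.05. SCP2 was at -0.36, OSBP at -0.22 and GRAMD1A at 0.23. GRAMD1B, which carries cholesterol from the plasma membrane to the ER, was the only list gene at least 1.5-fold higher, with 32 and 60 counts (log2 ratio 0.88, 95% interval 0.28 to 1.59). By FPKM GRAMD1B was at 1.63, outside that interval, and its implied length was 6197 bases under control siRNA and 3041 under HNRNPF siRNA. STARD3 (0.05, 95% interval -0.08 to 0.19) and STARD5 (0.07, 95% interval -0.44 to 0.59), the expressed relatives of STARD4 in the list, had intervals that included 0, that of STARD5 a wide one from 65 and 68 counts. Both are named after their values were seen.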

How the data were processed

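Per the labels' protocols, mRNA was selected from total RNA with oligo(dT) beads before library preparation and PCR. Tools listed in the submitters' processing notes, with no roles, are fastp 0.18.0, HISAT2, RSEM and StringTie 1.3.1, and the build is GRCh38. The deposited table holds the authors' estimated counts (expected counts, not scaled, not whole in 11.6% and 12.0% of genes), the authors' FPKM per library, and the authors' log2 fold change. A recalculation from FPKM, with 0.001 in place of 0, returned that log2 fold change. Another 2 columns of per-library means were not used. Effective library sizes were 20471293 (control) and 20314875 (HNRNPF siRNA).

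Counts were rounded (all 9 genes had whole counts). Log2 ratios are of CPM with TMM scaling in edgeR 4.0.16 (R 4.3.3) and a prior count of 2. The 95% intervals come from exact Clopper-Pearson limits on a gene's counts in 1 library over its sum in both (scipy 1.17.1). Their calculation was tested on simulated Poisson counts with known folds, which hold counting error alone. The intervals cover counting error only, since reads without molecular identifiers are not independent molecules. Coordinates and 3′ UTRs come from GENCODE 29 (GRCh38), which held 20171 of the 20323 identifiers.

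Beside the 9 genes and HNRNPF, the genes named were, for each of 10 lists, the 3 at 5 CPM and 50 counts or more with the largest absolute log2 ratio, all genes of a list with 6 or fewer expressed, and any past 1.5-fold. Some genes of the lists enter the counts and medians but are not reported here by name. Members, lists and the fold were chosen with earlier results of these data known. With 2 libraries no likeness of pattern between genes was measured. Alternatives were other library scalings (DESeq2 1.42.0 size factors among them), a prior count of 0.5, FPKM, removal of the trend with GC content and length, other filters and folds, other 3′ UTRs, and lists without genes that hold GGAAGAA.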

Additional observations from a re-analysis of the deposited data

How the results depend on the processing

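Of 54 log2 ratios of the 9 genes under 6 alternatives, 50 stayed inside the counting interval. With the authors' FPKM, INSIG1 was at -0.55, INSIG2 at -0.56 and MBTPS1 at 0.13, and after correction for GC content and transcript length STARD4 was at -0.38; the cause was not tested. The count of genes at least 1.5-fold lower was 0 with FPKM and 0 at 2-fold. The sign was kept in all 6 alternatives for each gene but MBTPS2. Of 192 values of 32 other named genes, 180 stayed inside the interval, and no gene past 1.5-fold changed sign. By the longest 3′ UTR, GGAAGAA was held by 4 of the 9 genes, 2 of the LDL uptake genes, 1 of the other protease substrates and 2716 of 11951 expressed genes (22.7%). Genes below control numbered 5 in the COPII list with totals without mitochondrial genes and 5 after that correction. With FPKM they numbered 3 among partners of nuclear SREBPs, 1 in the LXR list and 3 of 7 in the list of MYLIP's E2 enzymes and receptors. Totals without mitochondrial genes also gave 3 of 7 there, and leaving out the 2 holders of GGAAGAA, both lower, gave 3 of 5. Depth limits INSIG2 and MYLIP, whose intervals include 0. For SREBF1, whether the interval excludes 0 depends on the scaling of the libraries. No paired analysis was possible because each group held 1 library.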
